A study of Homo sapiens with 20 samples.

Results

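The transcripts described here are those that run across the genes of miR-9 and miR-124, microRNAs of the nervous system, in human neural progenitor cells that were followed for 18 days of neuronal differentiation. The members were taken as every gene record, on either strand, whose span contained 1 of 6 fixed hg19 positions, 1 inside each of the hairpins miR-9-1, miR-9-2, miR-9-3, miR-124-1, miR-124-2 and miR-124-3. Of 38369 records (20237 coding and 18132 lincRNA, that is long intergenic noncoding RNA), 3 contained a position: C1orf61 at miR-9-1, a record without a name in the files at miR-9-2, and linc-BHLHE23-3 at miR-124-3. No record contained the position of miR-9-3, miR-124-1 or miR-124-2.

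Polyadenylated RNA was sequenced in neural progenitors made from H1 cells (an established line of human embryonic stem cells), so that all values come from the cells of 1 line. Day 0 cells were kept in medium with FGF, a growth factor that holds progenitors in division. For the later days FGF was withdrawn and BDNF, a neurotrophin, was supplied. Cells collected on days 5, 11 and 18 had been replated on day 4 onto poly-D-lysine and laminin. The 20 samples comprised 3 for each of days 0, 1, 2, 4, 11 and 18 and 2 for day 5. The files held a single FPKM value per record and day (fragments scaled to transcript length and to all mapped fragments), which the authors had estimated from that day's samples together. No spread between samples, read count or depth was therefore known for any value, and no difference below was tested.

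A microRNA is cut from a longer primary transcript, the host, first by the Drosha and DGCR8 complex in the nucleus and then by Dicer in the cytoplasm, and the hairpin may lie in an exon or an intron of that host. miR-9 is known from neural progenitors and neurons, and miR-124 is among the most abundant microRNAs of neurons. Both are known to act on the mRNA of components of the REST repressor complex, which silences neuronal genes in other cells, and the miR-124 genes carry REST sites of their own. The RNA measured here was polyadenylated and spliced host RNA. Mature microRNAs were not measured, and a host level is not a level of its microRNA.

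The miR-9 hairpins are shown first because the same mature microRNA comes from 3 loci, at 2 of which a record contained the hairpin. In the RefSeq sequences below the capitals mark the seed, bases 2 to 8, with which a microRNA pairs to its targets.

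hsa-miR-9-5p: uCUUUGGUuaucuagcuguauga
hsa-miR-9-3p: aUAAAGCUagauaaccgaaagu

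The 5p form had 23 bases and the 3p form, long called miR-9*, had 22. Neither seed was shared with another of the 2370 mature names of the table. In the hairpins the capitals mark the arms that give rise to the mature forms.

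MIR9-1: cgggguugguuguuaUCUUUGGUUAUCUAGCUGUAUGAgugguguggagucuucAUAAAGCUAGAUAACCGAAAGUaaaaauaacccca
MIR9-2: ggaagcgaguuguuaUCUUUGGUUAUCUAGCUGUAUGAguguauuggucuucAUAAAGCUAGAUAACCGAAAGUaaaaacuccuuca
MIR9-3: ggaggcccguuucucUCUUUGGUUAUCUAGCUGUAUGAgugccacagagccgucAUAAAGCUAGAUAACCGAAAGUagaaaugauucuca

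Matched to GRCh37, the same build as hg19, the sequence of MIR9-1 lay at chr1:156390133-156390221 on the minus strand. MIR9-2 lay at chr5:87962671-87962757 on the minus strand, and MIR9-3 at chr15:89911248-89911337 on the plus strand. Both arms were identical in all 3 hairpins, so a mature miR-9 molecule does not tell which locus it came from. The hairpins differed in the loop, which had 16, 14 and 16 bases, and in the stem below the arms. Over whole hairpins MIR9-1 and MIR9-2 were 83.1% identical, MIR9-1 and MIR9-3 77.8%, and MIR9-2 and MIR9-3 79.3%.

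The 3 members held their hairpin position in different ways. C1orf61 (chr1:156374049-156400493, minus strand) was listed among the coding records, with 7 isoforms and 7984 exon bases. Of its isoforms 5 spanned the miR-9-1 position and 0 had it in an exon, and the nearest exons lay 3514 and 5262 bases away, so the hairpin was intronic. All of its exon bases lay within MIR9-1HG of GENCODE 44, which classes the gene as a long noncoding RNA. RefSeq lists C1orf61 as an older name of MIR9-1HG. GENCODE places the MIR9-1 hairpin on the plus strand, whereas the sequence above matched the strand of C1orf61.

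The record at miR-9-2 (chr5:87836597-87980620, minus strand) had 5 isoforms and 4857 exon bases, 100% of them within LINC00461 of GENCODE, and it is called LINC00461 here. All 5 isoforms spanned the position and 4 of them held it in an exon of 3146 bases, so in these isoforms the hairpin was part of the polyadenylated RNA. The remaining isoform spliced past it.

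linc-BHLHE23-3 (chr20:61794102-61812255, minus strand) had 3 isoforms and 4805 exon bases. Only 1 isoform spanned the miR-124-3 position, with its nearest exons 4482 and 2178 bases away. GENCODE lists the MIR124-3 hairpin on the plus strand (chr20:61809852-61809938), so by that annotation the record ran antisense to it and would not be its host. The strand rests on GENCODE alone here and was not checked by a sequence match as for miR-9. The map of exons shows the position in an intron of C1orf61 and of linc-BHLHE23-3 and in an exon of LINC00461. It does not show the strand of a hairpin.

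**Figure D1:**
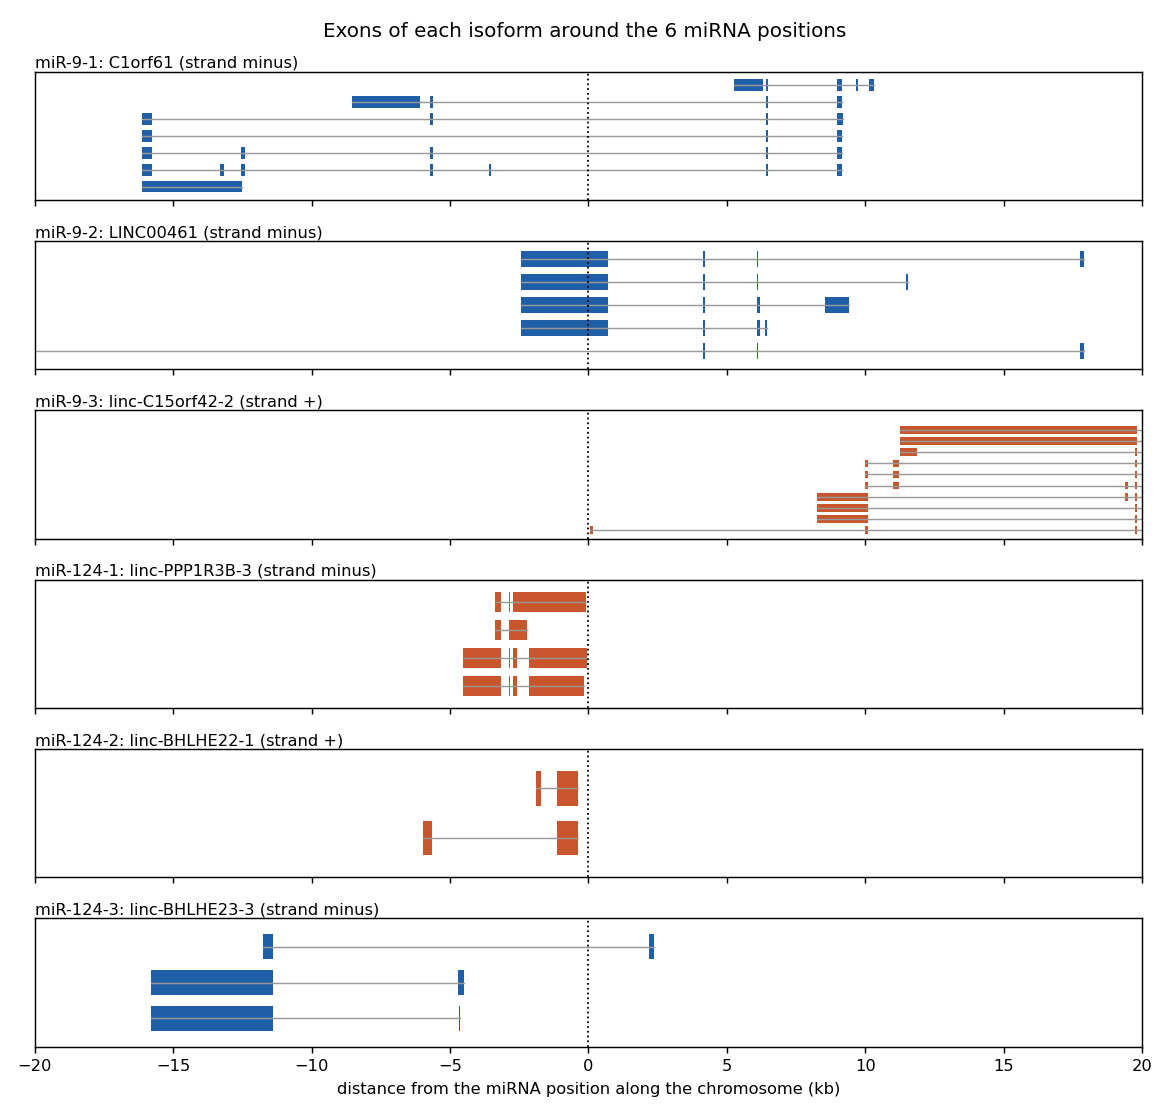
Exons (boxes) and introns (lines) of each isoform within 20 kb of the 6 miRNA positions (dotted line), by distance along the chromosome in kb, for the 3 members (blue) and for the nearest record where no record contained the position (orange). The position lies in an intron of C1orf61, in an exon of 4 LINC00461 isoforms and in an intron of 1 linc-BHLHE23-3 isoform, while linc-C15orf42-2, linc-PPP1R3B-3 and linc-BHLHE22-1 stop short of it by 51, 45 and 376 bases.

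C1orf61 was barely detected in the progenitors and was among the more abundant RNAs by day 18. Its level was 0.147 FPKM on day 0, 0.140 on day 1, 0.192 on day 2, 0.384 on day 4, 0.419 on day 5, 11.2 on day 11 and 63.0 on day 18. The first 5 days all lay under 0.5 FPKM, and the 2 last days stood far above them. The FPKM on day 11 was 26.7 times that on day 5, and the FPKM on day 18 was 5.61 times that on day 11. By level C1orf61 ranked 20083 of 38369 records on day 0 and 597 on day 18, when 98.4% of records lay below it. An FPKM value covers all isoforms of a record. The part that came from the 5 of 7 C1orf61 isoforms spanning the hairpin is therefore unknown. The same holds for linc-BHLHE23-3, where 1 of 3 isoforms spanned its position.

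LINC00461 was already abundant in the progenitors. Its level was 10.8 FPKM on day 0, 13.9 on day 1, 14.2 on day 2, 21.7 on day 4, 20.2 on day 5, 47.3 on day 11 and 38.5 on day 18. Every later day lay above day 0, and the highest value, on day 11, was 4.38 times the lowest. On day 0 82.1% of records lay below it and on day 18 97.0%.

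The order of the miR-9 hosts by FPKM, a level per transcript length, turned over between days 11 and 18. LINC00461 was 73.4-fold higher than C1orf61 on day 0, 48.1-fold higher on day 5 and 4.22-fold higher on day 11. On day 18 C1orf61 was 1.64-fold higher than LINC00461. With 1 value a day it is unknown whether the difference on day 18 exceeds the spread between samples.

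linc-BHLHE23-3 stayed low and followed an arch. Its level was 0.861 FPKM on day 0, 2.45 on day 1, 2.02 on day 2, 2.78 on day 4, 3.27 on day 5, 2.49 on day 11 and 1.17 on day 18. The 5 middle days lay above both ends. The FPKM on day 1 was 2.84 times that on day 0, and day 18 was at 0.471 times day 11.

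**Figure D2:**
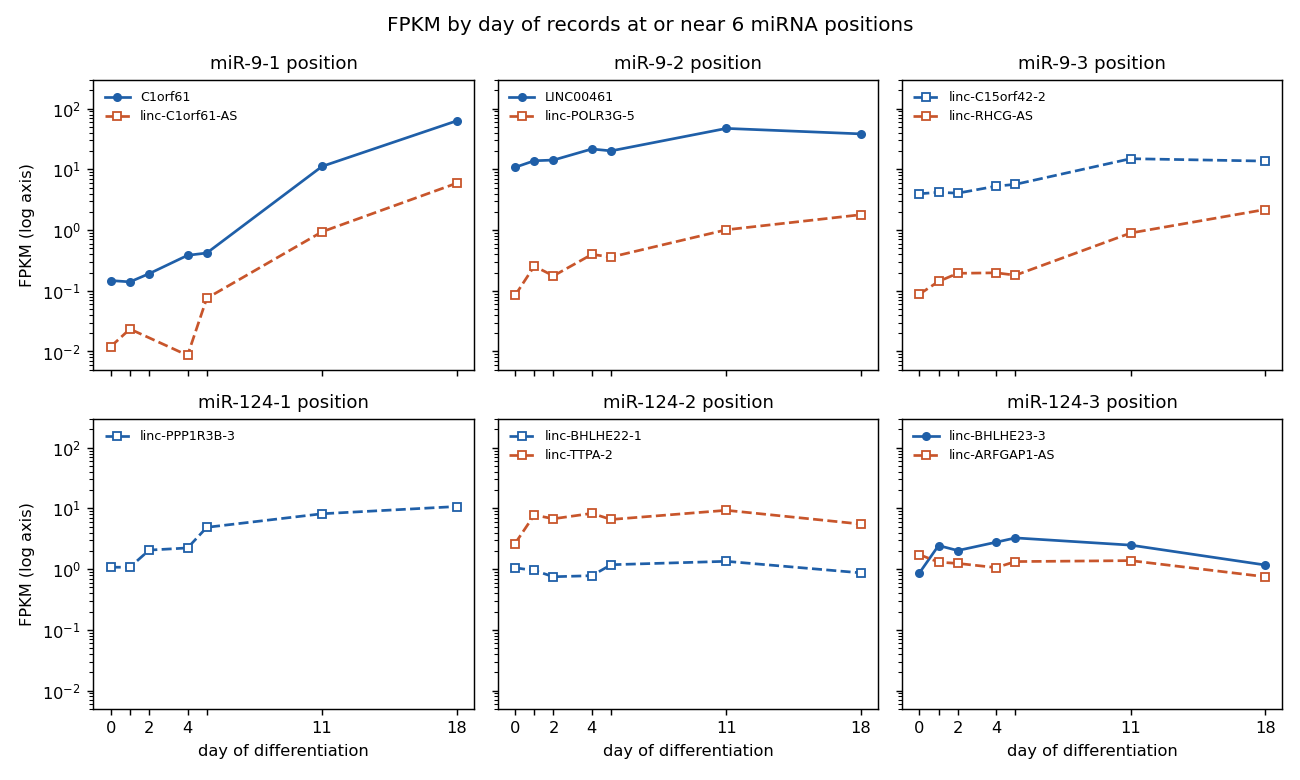
FPKM (log axis) by day of differentiation for the members (filled circles, solid lines) and the lincRNA records within 100 kb whose highest FPKM was at least 1 (open squares, dashed lines), 1 panel for each miRNA position. C1orf61 goes from 0.147 to 63.0 FPKM and LINC00461 from 10.8 to 38.5, linc-BHLHE23-3 arches with a highest value of 3.27, and the day 2 value of linc-C1orf61-AS, listed at 0, is not drawn.

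Changes were next set against all records. A change was the difference of log2(FPKM + 0.1), which understates the change of low records, and it was called when it passed 2-fold. Records entered this comparison when their FPKM averaged 0.1 or more over the days, a filter all 3 members passed. Of these 21743 records 10.5% were called higher on day 18 than on day 0 and 24.2% lower. Of the members 2 of 3 were called higher and 0 lower. The difference was 7.99 for C1orf61, 1.82 for LINC00461 and 0.40 for linc-BHLHE23-3. C1orf61 had the 2nd highest difference of all 21743 records and LINC00461 was number 983.

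The scale of the table itself moved with the days. Summed FPKM was 413978 on day 0 and 251156 on day 18, and the median difference over the 14443 records averaging 1 FPKM or more, called expressed records here, was -0.56. Relative to that median the differences were 8.55 for C1orf61, 2.38 for LINC00461 and 0.96 for linc-BHLHE23-3. After this recentring 19.9% of all tested records were past 2-fold higher and 10.6% lower. With each day scaled to the same summed FPKM, an alternative chosen after seeing the data, linc-BHLHE23-3 also passed 2-fold, at 1.13. The share of all records past 2-fold under that scaling was not computed.

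By steps, the members changed at different times. From day 5 to day 11 2.54% of records were called higher and 4.27% lower, and C1orf61 (4.45) and LINC00461 (1.23) were among the higher ones, while linc-BHLHE23-3 was at -0.38. C1orf61 ranked 4th of 21743 records in this step. From day 11 to day 18 1.7% were called higher and 3.3% lower. C1orf61 was called higher (2.48), and linc-BHLHE23-3 was called lower (-1.03), or -0.75 relative to the median and then not past 2-fold. LINC00461 was at -0.30, or -0.02 relative to the median, so its lower FPKM on day 18 went with the scale of the table. From day 0 to day 1 5.06% of records were called higher and 4.0% lower, and linc-BHLHE23-3 was the only member called, at 1.41. In the step that spans the replating, day 4 to day 5, the differences of C1orf61, LINC00461 and linc-BHLHE23-3 were 0.10, -0.10 and 0.23, none past 2-fold, where 0.809% of all records were called higher and 0.612% lower. In both steps between days 1 and 4 no member passed 2-fold. The differences from day 1 to day 2, where 0.676% of records were called higher and 0.92% lower, were 0.28, 0.04 and -0.26 in the same order. Those from day 2 to day 4, where 0.855% were called higher and 1.28% lower, were 0.73, 0.60 and 0.44.

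**Figure D3:**
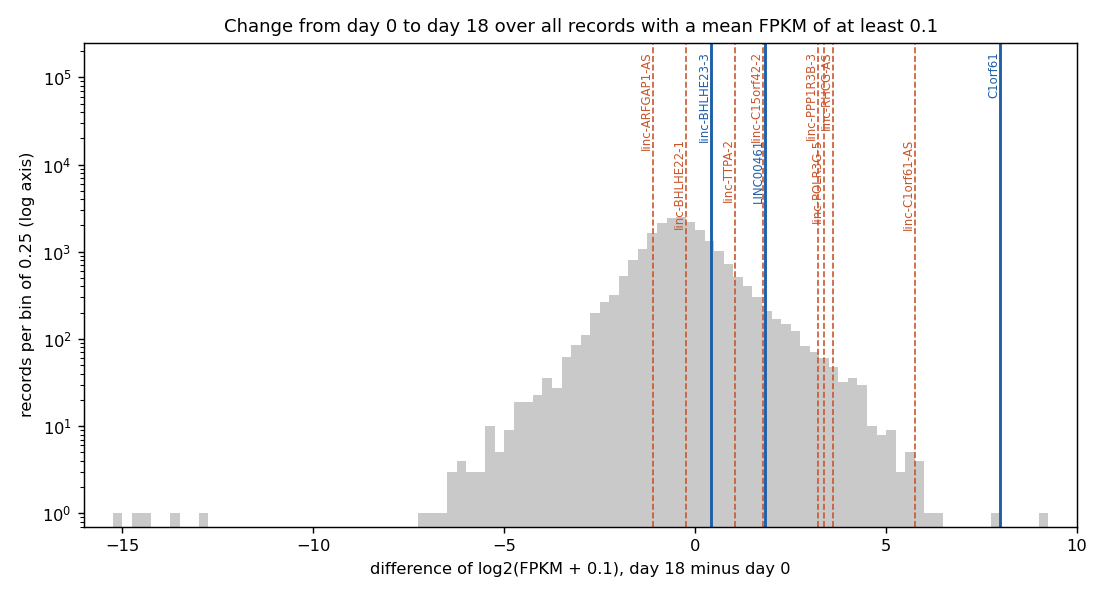
Number of records (log axis, bins of 0.25) by the difference of log2(FPKM + 0.1) between day 18 and day 0, over the 21743 records that passed the filter on low values, with members as solid blue and nearby lincRNA records as dashed orange lines. C1orf61 at 7.99 lies beyond nearly all records and LINC00461 at 1.82 on the upper shoulder. linc-BHLHE23-3 at 0.40 is number 4521 from the top, above the median of -0.40.

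At the 3 positions without a record, the nearest lincRNA record ended or began a short way off. linc-C15orf42-2 (chr15:89911341-89941724, plus strand) began 4 bases beyond the end of the MIR9-3 hairpin, on the same strand, and 43.4% of its exon bases lay in MIR9-3HG, the gene GENCODE lists across the hairpin. Only 1 of its 11 isoforms began there. Its level was 3.96 FPKM on day 0, 4.19 on day 1, 4.06 on day 2, 5.30 on day 4, 5.67 on day 5, 15.005 on day 11 and 13.7 on day 18. Like LINC00461 it was highest on day 11, and its difference from day 0 to day 18 was 1.77.

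linc-PPP1R3B-3 (chr8:9756396-9760895, minus strand) had its 5′ end 45 bases from the miR-124-1 position, and 76.8% of its exon bases lay in MIR124-1HG. Only 1 of its 4 isoforms began there, and the others began farther from the position. Its level was 1.07 FPKM on day 0, 1.08 on day 1, 2.06 on day 2, 2.23 on day 4, 4.88 on day 5, 8.17 on day 11 and 10.7 on day 18. It was the 1 record of the 3 with a value past 2-fold from day 4 to day 5 (1.09), and its difference from day 0 to day 18 was 3.21.

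linc-BHLHE22-1 (chr8:65285775-65291384, plus strand) ended 322 bases before the MIR124-2 hairpin, on the same strand, and all its exon bases lay in MIR124-2HG. Its level was 1.05 FPKM on day 0, 0.951 on day 1, 0.749 on day 2, 0.780 on day 4, 1.18 on day 5, 1.34 on day 11 and 0.868 on day 18. The 7 values stayed within 1.79-fold of each other. The difference from day 0 to day 18 was -0.25, and 0.31 once recentred on expressed records, so even its sign depended on the scaling.

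The files thus held miR-124-1 and miR-124-2 only through records that lie beside the hairpin. In GENCODE, 7 transcripts of MIR124-1HG span the first of these positions, 2 of them with it in an exon. For MIR124-2HG these counts were 9 and 0, and for MIR9-3HG 10 and 2. In MIR9-1HG 0 of 78 spanning transcripts held the miR-9-1 position in an exon, and in LINC00461 15 of 33 held that of miR-9-2.

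Within 100 kb of the 6 positions lay 22 other lincRNA records, of which 8 reached 1 FPKM on some day and 14 stayed under it, the highest of these at 0.599. Beyond the 3 described above, linc-C1orf61-AS went from 0.0120 FPKM on day 0 to 5.91 on day 18, linc-POLR3G-5 from 0.0837 to 1.79 and linc-RHCG-AS from 0.0878 to 2.18. linc-TTPA-2 went from 2.63 to 5.53, with 7.78 already on day 1, and linc-ARFGAP1-AS from 1.74 to 0.749. Those under 1 FPKM on day 0 were among the 8 only through their late days, so their direction follows from the choice and no count of directions is given. linc-ARFGAP1-AS differed by -1.11 between day 0 and day 18, and by -0.56 relative to the median.

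Part of these records cannot be told apart from a member by strand. The kit is not one that marks strand and counting by strand is not stated, so reads where exons of both strands overlap could be assigned to either. linc-C1orf61-AS shared 494 bases with C1orf61, 37.7% of its own exon bases and 6.19% of those of C1orf61. linc-POLR3G-5 shared 817 bases with LINC00461, 16.5% of its own and 16.8% of those of LINC00461. Other named records overlapped in the same way with records that are not members. linc-ARFGAP1-AS shared 333 of its 1034 exon bases with ARFGAP1. linc-RHCG-AS shared 1846 of its 8376 exon bases with linc-RHCG and 98 with RHCG. The levels of all these antisense records, and the differences and correlations given for them, are therefore uncertain. linc-BHLHE23-3 shared no exon base with a record of the other strand.

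Over the 7 days, log2(FPKM + 0.1) of C1orf61 and LINC00461 correlated with a Pearson r of 0.90. The points are 7 pooled values that share the same samples and scaling, and most of the trend is a difference between early and late days. With linc-C15orf42-2 C1orf61 was at 0.96 and LINC00461 at 0.97, and with linc-PPP1R3B-3 at 0.89 and 0.92. C1orf61 was at 0.99 with both linc-RHCG-AS and linc-C1orf61-AS, where LINC00461 was at 0.88 and 0.83. Both antisense records reached 1 FPKM only on day 18, where C1orf61 was highest, so this r follows in part from the choice. linc-BHLHE23-3 was at -0.21 with C1orf61, 0.19 with LINC00461 and 0.84 with linc-TTPA-2.

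The records most like each member in this measure were taken among the records whose highest FPKM was at least 1, 15794 of them for C1orf61. For C1orf61 the 5 coding records were SPOCK3, a secreted proteoglycan, ST8SIA1, the ganglioside GD3 synthase, CDH9, a cadherin, FAM5C and LY6H, with r between 0.996 and 0.998. All 5 reached lower levels than C1orf61, from 1.43 to 8.44 FPKM on day 18. The lincRNA records were linc-EIF2AK3-4, linc-RBMS3-1 and linc-MAP3K9-BP, with r from 0.992 to 0.993. All of these coding and lincRNA records but ST8SIA1 reached 1 FPKM only on day 11 or later, where C1orf61 was high. They passed the filter through those days alone, so their r follows in part from the choice. On day 0 CDH9 (0.0521 FPKM) and FAM5C (0.0164 FPKM) lay under the 0.1 added before the log.

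For LINC00461 they were PPP2R3A, a regulatory subunit of protein phosphatase 2A, S1PR1, a sphingosine-1-phosphate receptor, SOBP, TOX, an HMG-box factor, and FAT4, an atypical cadherin, with r between 0.993 and 0.996. S1PR1 went from 5.23 FPKM on day 0 to 23.3 on day 11 and 20.3 on day 18. FAT4 went from 4.06 to 20.0 and 18.0. The lincRNA records were linc-FSD1L-AS, linc-KIF1B-AS and linc-MFSD9-12, the last of which reached 1 FPKM only from day 4 on.

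For linc-BHLHE23-3 they were BBS9, SOX6, GATM, an enzyme of creatine synthesis, HES3, a bHLH repressor, and NUDT7, with r between 0.985 and 0.994. HES3 was at 3.02 FPKM on day 0, 17.9 on day 1, 24.3 on day 5 and 5.32 on day 18. The lincRNA records were linc-GPSM1-2, linc-BRD3-AS and linc-C6orf106-AS. SOX6, linc-GPSM1-2 and linc-C6orf106-AS reached 1 FPKM only on middle days, where linc-BHLHE23-3 was high, so their r too follows in part from the choice. Records with r of at least 0.95 numbered 316 for C1orf61, 274 for LINC00461 and 67 for linc-BHLHE23-3, so the names at the top are a few among many.

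The promoters of the miR-9 host genes are shown because the host RNAs of 2 of these loci were called higher on day 18 and because a start site tells how far the record reaches. RefSeq promoter windows, 250 bases before to 50 after a start, were at hand for 8 starts of MIR9-1HG, MIR9-2HG (the RefSeq name of LINC00461) and MIR9-3HG. Each was searched on both strands for CAGCACC and GGACAGC, core letters of the left and the right part of the RE1 element that REST binds, and for CAGCTG and CAGATG, E-boxes of proneural factors. Of all 35116 promoters 7.75%, 6.03%, 17.9% and 14.7% held these letters, in that order. The capitals below mark a match.

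MIR9-1HG: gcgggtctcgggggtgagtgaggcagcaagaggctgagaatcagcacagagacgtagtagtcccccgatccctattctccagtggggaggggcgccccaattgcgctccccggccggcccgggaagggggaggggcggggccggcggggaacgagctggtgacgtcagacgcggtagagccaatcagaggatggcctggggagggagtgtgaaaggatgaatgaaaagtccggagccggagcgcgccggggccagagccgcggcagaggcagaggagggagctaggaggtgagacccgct
MIR9-2HG: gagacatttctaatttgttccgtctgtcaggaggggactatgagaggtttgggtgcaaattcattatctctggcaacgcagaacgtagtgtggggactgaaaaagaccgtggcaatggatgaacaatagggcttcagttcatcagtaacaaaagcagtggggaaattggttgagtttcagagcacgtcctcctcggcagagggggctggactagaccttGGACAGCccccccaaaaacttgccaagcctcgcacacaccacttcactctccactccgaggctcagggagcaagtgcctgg

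The window of MIR9-1HG (chr1:156391512-156391811 in GRCh37, minus strand) held none of the letters and had a GC content of 67.7%. Its start lay 1340 bases upstream of the MIR9-1 hairpin and 7779 bases from the nearest 5′ end of a C1orf61 isoform, so no isoform of the record began there. The window of MIR9-2HG shown here (chr5:87969108-87969407, minus strand), 1 of 3 for this gene, held GGACAGC in 1 place. Its start coincided with the 5′ end of a LINC00461 isoform and lay 6400 bases upstream of the MIR9-2 hairpin. Of the other starts, 1 of MIR9-2HG held CAGCTG and 1 of MIR9-3HG held CAGATG, and 5 of all 8 windows held none. Among these 5 is the MIR9-2HG start that lay 22 bases from the 5′ end of the LINC00461 record. A match is only a run of letters in this window, and no match says only that these letters are not there.

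The proteins around the microRNAs were followed with lists of genes, of which the list of the REST complex comes first. REST is the DNA-binding repressor, RCOR1 its corepressor, and CTDSP1, CTDSP2 and CTDSPL are phosphatases that work with it. Of 10 records, where HDAC1 and HDAC2 share 1 and KDM1A had none under its name, 4 were called lower on day 18 than on day 0 and 0 higher, where 24.2% of all tested records were called lower and 10.5% higher. The median difference was -0.82 against -0.40 for all tested records. REST went from 7.68 to 3.11 FPKM, CTDSP1 from 13.6 to 6.37, CTDSP2 from 58.9 to 20.3 and CTDSPL from 6.43 to 1.88. RCOR2, given for its role after its values were seen, was at 24.1 and 32.3. Once recentred on expressed records 1 of the 4, CTDSPL, was past 2-fold, where 10.6% of all tested records were lower.

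Of 14 genes for microRNA biogenesis and effector proteins, 3 were called lower and 0 higher, with a median of -0.60. Beside the 24.2% lower and 10.5% higher of all tested records, this count is no result about the list. The lower ones were LIN28B, a let-7 regulator, from 14.3 to 2.55 FPKM, XPO5, which exports hairpins from the nucleus, from 33.5 to 14.9, and TARBP2, a Dicer partner, from 25.0 to 12.2. Recentred on expressed records, 1 was lower and 2, AGO4 and TNRC6C, were higher, where 10.6% and 19.9% of all tested records were. The processing enzymes, given for their role after their values were seen, were present on all days. DROSHA went from 27.5 FPKM on day 0 to 17.3 on day 18, DGCR8 from 21.8 to 11.6 and DICER1 from 29.3 to 17.5, none past 2-fold.

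Of 19 described targets of miR-124, 15 were called lower, where 24.2% of all tested records were, and 1 higher, where 10.5% were. The median was -1.53. The 15 include CTDSP1, CTDSP2 and CTDSPL, which are also counted as lower in the list of the REST complex. SNAI2, a transcription factor of neural crest, went from 13.3 to 0.525 FPKM, LAMC1, a laminin chain, from 129 to 7.10, ITGB1, an integrin, from 213 to 39.5, and PTBP1, a splicing repressor of non-neuronal cells, from 180 to 34.9. SOX9, a factor of progenitors and glia, was the 1 called higher, from 7.25 to 34.8. After the same recentring 9 were lower and 1 higher, where 10.6% and 19.9% of all tested records were. SNAI2 is also in the mesenchymal list below, whose summed FPKM was lower by day 18 as well, and the part of such cells in these counts was not tested.

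Of 13 measured targets of miR-9 or miR-9*, 3 were called lower and 2 higher, with a median of -0.32, near the 24.2% and 10.5% of all tested records. The lower ones were PRTG, a surface protein of early neural tissue, from 50.5 to 6.12 FPKM, ACTL6A, a subunit of the progenitor BAF chromatin complex, from 61.6 to 20.1, and REST. ACTL6A is also counted among the miR-124 targets, and REST in the list of the REST complex. The higher ones were ONECUT2, a transcription factor, from 0.239 to 4.49 FPKM, and NR2E1, a nuclear receptor of neural stem cells, from 0.0392 to 0.529. After recentring 2 were lower and 4 higher, where 10.6% and 19.9% of all tested records were. Of the 5 neuronal partners in these switches 1 was called higher, where 10.5% of all tested records were, and 0 lower. After recentring 2 were higher, against 19.9%. The gene called without recentring was ACTL6B, the neuronal counterpart of ACTL6A, from 0.908 FPKM on day 0 to 7.85 on day 5 and 25.6 on day 18. PTBP2, the neuronal relative of PTBP1 and also given for its role, was at 24.4 FPKM on day 0, 42.3 on day 11 and 33.1 on day 18.

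**Figure D4:**
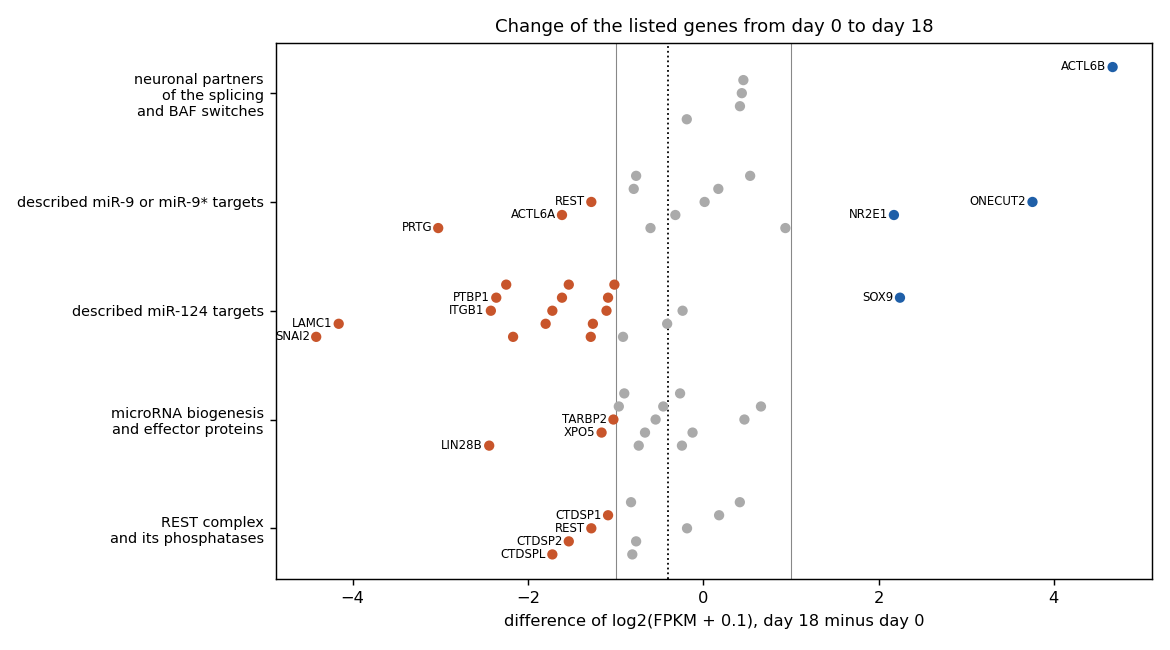
Difference of log2(FPKM + 0.1) between day 18 and day 0 for each listed record that passed the filter on low values, by list, with those past 2-fold (thin lines at -1 and 1) in orange when lower and in blue when higher, and the median of all tested records at -0.40 dotted. Below -1 lie 15 of 19 described miR-124 targets, 3 of 13 for miR-9 and 4 of 10 for the REST complex. Of all tested records 24.2% were called lower. The lists share genes (CTDSP1, CTDSP2, CTDSPL, REST and ACTL6A among the lower ones), so these counts are not separate.

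The labelled cell type was checked against markers by summed FPKM. Neuron markers went from 531 on day 0 to 1579 on day 18, 5 of 6 records being called higher, where 10.5% of all tested records were. TUBB3, in a record merged with another gene, made up 382 FPKM of the first sum and 502 of the last, and RBFOX3 had no record under its name. Progenitor markers went from 733 to 317, mostly through NES, at 513 FPKM on day 0 and 180 on day 18. Of these 6 markers 2 were called lower, NES and PROM1, and 2 higher, HES5 (from 1.95 to 20.0 FPKM) and PAX6 (from 4.31 to 10.4). Of all tested records 24.2% were called lower and 10.5% higher, so the count of lower markers lies near the background. Mesenchymal or neural crest markers went from 105 to 5.19, with COL1A1 listed at 0 on all days. Most of this came from PLAU, at 57.2 FPKM on day 0 and 0.404 on day 18, and COL1A2, at 33.6 and 3.81. Endothelial or blood markers went from 2.35 to 0.0343 and oligodendrocyte markers from 0.934 to 0.316. Astrocyte markers fell from 9.22 on day 0 to 0.821 on day 2 and were back at 4.52 on day 18. Nearly all of the sums on days 0 and 18 was S100B, and GFAP stayed at or under 0.187. Pluripotency markers went from 32.2 to 1.99, nearly all LIN28A, with POU5F1 at or under 0.108. In these bulk samples fewer cells of a type and less RNA per cell cannot be told apart, and this holds for every host level above.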

How the data were processed

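Polyadenylated RNA of 20 samples was sequenced with paired reads. The methods of the study state alignment to hg19 by TopHat2, transcript assembly by Cufflinks, a merge of the result with a catalogue of lincRNAs, and estimation by Cuffdiff2. Program versions are not given in the sources used here. The deposited FPKM table holds 1 value per record and day, and columns with values of single samples numbered 0, so replicate error and depth are unknown. Columns of the authors' own comparisons (log2 fold changes, test statistics, p-values, q-values and status of 6 pairs of adjacent days) were not used. Differences of log2(FPKM + 0.1) were computed with pandas 2.3.3 and numpy 2.4.6, called past 2-fold, and read against all records averaging 0.1 FPKM or more. Recentring subtracted the median of records averaging 1 or more. The counting of calls was checked on simulated data. Exons were compared with GENCODE 44 mapped to GRCh37. Sequences came from RefSeq (promoters from GRCh38), and the hairpins and promoter windows were placed in GRCh37 by exact match. miR-124 sequences are not shown. Named were all members, lincRNA records within 100 kb reaching 1 FPKM, 2 coding neighbours on each side, at most 4 listed genes per direction, the 5 coding and 3 lincRNA records most like a member, and markers. Members and lists were chosen with earlier results of these data known.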

Additional observations from a re-analysis of the deposited data

How the results depend on the processing

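No paired analysis was possible because the files hold 1 pooled value per day, and for the same reason no replicate could be left out. Of 97 values recomputed under other settings 61 stayed close to the reported one. A change of sign could be seen only for member differences past 2-fold, not for counts, and it occurred in 0 of these. With a pseudocount of 1 the difference of C1orf61 was 5.80 for day 18 over day 0 and 3.11 for day 11 over day 5, and with 0.01 the former was 8.64, since its early values lie near the pseudocount. With each day scaled to the same summed FPKM, the differences from day 0 to day 18 were 9.10 for C1orf61, 2.55 for LINC00461 and 1.13 for linc-BHLHE23-3. At a 4-fold threshold 1 member, C1orf61, was called. The share of all records past 4-fold was not computed, so this count has no background. Recentring left 1 gene lower in the REST list, 1 lower and 2 higher in microRNA biogenesis, 9 lower among miR-124 targets, 4 higher among miR-9 targets and 2 higher among neuronal partners. Of all tested records 10.6% were then lower and 19.9% higher. Among miR-9 targets 1 was higher with a pseudocount of 1 or a mean of at least 1. The share of all records called under these settings was not computed. The records most like a member depended strongly on the setting. Of the 8 named for C1orf61, 1 remained by Spearman rho, 4 with a pseudocount of 1, and 3, 5, 4, 2, 5 and 3 without day 0, 1, 2, 5, 11 and 18. Of the 8 for LINC00461, 3 remained by rho, and 2, 4, 5, 4, 3 and 2 without day 0, 2, 4, 5, 11 and 18. Of the 8 for linc-BHLHE23-3, 4 remained by rho, and 1, 5, 2, 5 and 3 without day 0, 1, 5, 11 and 18. The causes were not tested. Pooled values limit everything above to description.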

Other observations

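Of 24 neighbours, 2 on each side of each position, 18 averaged 0.1 FPKM or more, and of these 2 were called higher and 5 lower from day 0 to day 18, with a median difference of -0.62. Over all tested records 10.5% were called higher and 24.2% lower, so these counts lie near the background. Both higher genes encode bHLH transcription factors and lie near miR-124 loci. BHLHE22, 201054 bases from the miR-124-2 position, was at 0.110 FPKM on day 0, 0.536 on day 5, 3.01 on day 11 and 3.82 on day 18, while linc-BHLHE22-1, the record beside the hairpin, went from 1.05 to 0.868 FPKM. BHLHE23, 171503 bases from the miR-124-3 position, was at 0.173 FPKM on day 0, 2.05 on day 11 and 0.590 on day 18.

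The lower genes were C1orf182 and IQGAP3 beside miR-9-1, FANCI and C15orf42 beside miR-9-3, and MSRA beside miR-124-1. FANCI, a DNA repair protein, went from 45.3 to 8.42 FPKM. MEF2D and MEF2C, transcription factors that neighbour C1orf61 and LINC00461, were at 3.57 and 1.48 FPKM on day 0 and at 3.47 and 1.89 on day 18. MEF2D, the nearest coding record upstream of C1orf61, thus differed by -0.04 on the log2 scale where C1orf61 differed by 7.99.

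The lincRNA record linc-C1orf61, on the strand of C1orf61 and inside the span that GENCODE gives to MIR9-1HG, was at 0.0818 FPKM or less on every day. Recentred on the median of expressed records, BHLHE22 was at 4.78 and BHLHE23 at 1.90.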
